A study of Mus musculus with 17 samples.

Results

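Blood DNA of mice carries a class of sites that were almost free of methylation in young animals although the sequence around them holds fewer CpG dinucleotides than a CpG island would. These sites were the autosomal CCCGGG sites whose mean methylation was below 5% in the 5 AL-young mice and whose surrounding 500 bp of the mm9 genome had a GC content below 50% or an observed over expected CpG ratio below 0.6. There were 1672 such sites (10.6%) among the 15742 autosomal sites covered by 100 reads or more in 13 or more of the 17 mice. The sites were chosen by the raw methylation measured in the AL-young mice, so the levels in AL-young mice and their differences from AL-old mice are given as a description without a test. The tested comparison was that of CR-old with AL-old mice, whose methylation the rule did not use. It was not fully separate from the rule. The fit also drew on the AL-young mice for its estimate of the spread between mice, and the depth limit counted reads in all 17 mice.

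Whole blood came from C57BL/6 mice, an inbred strain, and its methylation was read by digital restriction enzyme analysis (DREAM). Here the enzyme SmaI cuts only unmethylated CCCGGG, the enzyme XmaI then cuts the remaining methylated copies, and the end left on each sequenced fragment tells how the site was cut. AL-young were 5 mice aged 4 months with food ad libitum (AL), 2 females and 3 males. AL-old were 7 mice of 29 to 33 months with food ad libitum, 5 females and 2 males. CR-old were 5 mice of 32 to 38 months under caloric restriction (CR), 2 females and 3 males. Each mouse gave 1 library and is named here by its group and the number in its label, such as AL-old 27.

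Most CpG dinucleotides of a mammalian genome are methylated in every tissue. The best known exception is the CpG island, a stretch rich in CpG that often spans a gene's start and is kept free of methylation. Sites with few CpGs can also be unmethylated, in general at the flanks of islands, at active promoters and at enhancers where transcription factors bind. With age, methylation in blood is known to become more uneven between animals, with some unmethylated sites acquiring it and some methylated sites losing it.

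The libraries held between 6407519 reads (AL-old 27) and 51612805 reads (AL-young 30) at all sites, and the median site of the class was covered by 318 to 2768.5 reads per mouse. At 100 reads a share of 2% has a 95% Wilson interval from 0.550 to 7.001%, and a count of 0 allows up to 3%, so single values below a few percent are coarse at the lowest depths. Each library was spiked with standards of known methylation, from which the authors derived a correction that multiplied the odds of methylation by 1 constant per mouse. That constant was 1.40 to 3.96 in 6 mice, namely AL-old 08, 09, 10, 13 and 14, all the females of that group, and CR-old 06. It lay between 0.872 and 1.13 in the other 11 mice, so only the 2 males AL-old 25 and 27 were AL-old mice with a low correction, and group, sex and correction cannot be told apart well. Values below are raw, 100 times methylated over total reads, unless called adjusted. Where 3 levels follow one another without a group name, they are group means for AL-young, then AL-old, then CR-old.

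The class lay in promoters as often as retained sites in general. A promoter, from 1000 bp before to 500 bp after a start, held 859 of the 1672 sites (51.4%, against 52.4% of all retained sites), a gene body 497 (29.7%), and 316 (18.9%) were intergenic. The median distance to the nearest start was 568.5 bp, against 227 bp for the 8548 unmethylated sites with CpG-rich windows and 13758 bp for the 2831 CpG-poor sites over 90% methylated in AL-young mice. Introns held 780 sites, untranslated regions 195, coding exons 108 and exons of non-coding transcripts 64, and 525 lay outside genes. Counted by gene, 646 genes had a site of the class in their promoter.

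The label of a CpG-poor site held only in part. A CpG island called on the genome (at least 200 bp, GC of at least 50% and ratio of at least 0.6) contained 1037 of the sites (62.0%), another 565 (33.8%) lay within 2000 bp of one, and 70 (4.19%) were farther away. Of the CpG-poor methylated sites 14.7% were inside islands. The ratio rule chose 1610 of the sites and the GC rule 189, with 127 below both limits. The median site had 21 CpGs in its 500 bp, a GC content of 58.6% and a ratio of 0.504, between 48 CpGs, 68.8% and 0.839 in the CpG-rich class and 10 CpGs, 51.8% and 0.292 in the methylated class. Most of the class thus had a low CpG ratio over 500 bp without being remote from an island, and the sites are called here low-CpG-ratio unmethylated sites.

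**Figure D1:**
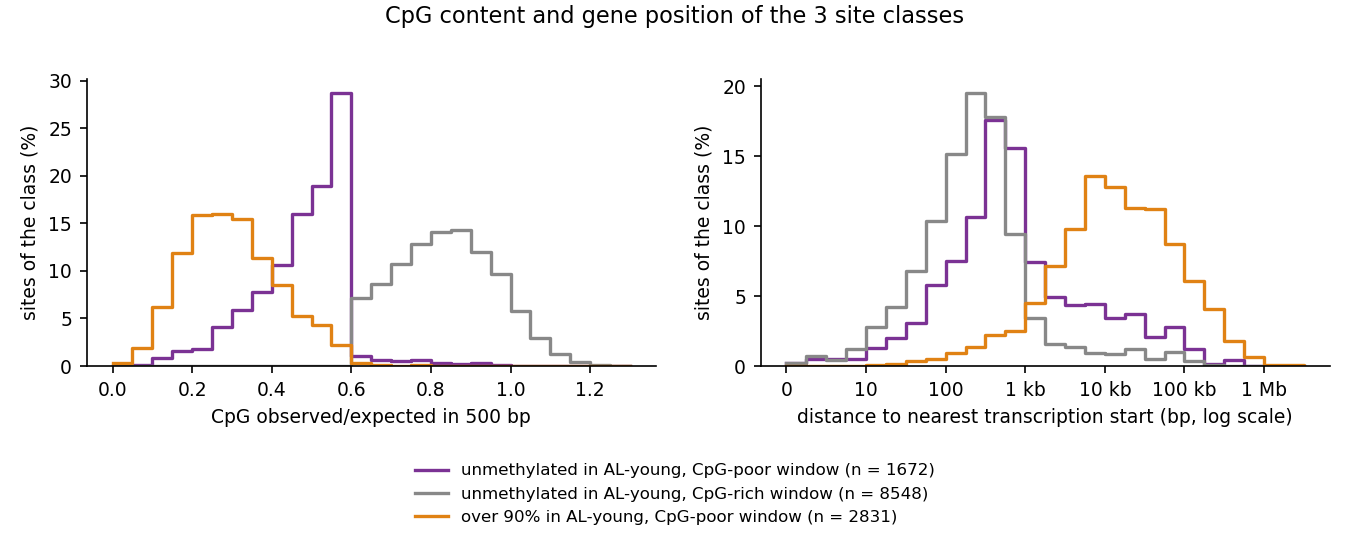
Distribution of the observed over expected CpG ratio in 500 bp (left) and of the distance to the nearest transcription start on a log scale (right), in percent of the sites of each class, for the 1672 unmethylated sites with CpG-poor windows, the 8548 with CpG-rich windows and the 2831 methylated CpG-poor sites. The left panel is set by the rule, with a median of 0.504 in the class, and the right panel shows its median distance of 568.5 bp between 227 bp and 13758 bp.

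Sequences of 10 stretches show what such sites look like. They were read from the plus strand of mm9 (assembly NCBIM37), 151 bases centred on the CpG of the site in all lines but the last, which runs from 40 bases before the first to 40 bases after the second site. Capitals mark CCCGGG and every CG. Myl7, Odz4 and Lima1 carried the largest differences between the old groups, the sites near Zfp395 and Gm11998 differed the other way, Ap2m1 and Rara stayed near 0 in every mouse, and Entpd4 and Myo18a stand for the CpG-rich unmethylated and the CpG-poor methylated class.
Myl7 (intron), chr11:5797905-5798055: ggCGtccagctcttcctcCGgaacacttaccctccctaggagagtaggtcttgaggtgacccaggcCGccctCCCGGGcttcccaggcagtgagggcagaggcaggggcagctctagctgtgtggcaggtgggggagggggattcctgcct
Odz4 (intron), chr7:103805833-103805983: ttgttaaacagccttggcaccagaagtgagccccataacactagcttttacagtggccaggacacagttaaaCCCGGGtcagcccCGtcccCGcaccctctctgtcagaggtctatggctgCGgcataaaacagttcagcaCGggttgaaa
Lima1 (intron), chr15:99633993-99634143: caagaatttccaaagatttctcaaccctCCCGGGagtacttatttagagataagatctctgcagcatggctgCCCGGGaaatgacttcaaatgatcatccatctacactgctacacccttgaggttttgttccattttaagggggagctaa
Near Zfp395 (intergenic), chr14:65970631-65970781: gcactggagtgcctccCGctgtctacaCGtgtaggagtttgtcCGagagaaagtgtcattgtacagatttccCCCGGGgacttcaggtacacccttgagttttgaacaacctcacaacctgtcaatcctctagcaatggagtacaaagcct
Near Gm11998 (intergenic), chr11:11429076-11429226: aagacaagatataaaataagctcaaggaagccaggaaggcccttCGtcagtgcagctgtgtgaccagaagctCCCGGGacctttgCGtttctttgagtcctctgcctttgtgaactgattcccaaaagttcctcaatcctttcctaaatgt
Ap2m1 (promoter), chr16:20535902-20536052: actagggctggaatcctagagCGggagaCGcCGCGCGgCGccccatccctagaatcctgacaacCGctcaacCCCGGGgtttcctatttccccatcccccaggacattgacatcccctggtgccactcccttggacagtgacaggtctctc
Rara (promoter), chr11:98820824-98820974: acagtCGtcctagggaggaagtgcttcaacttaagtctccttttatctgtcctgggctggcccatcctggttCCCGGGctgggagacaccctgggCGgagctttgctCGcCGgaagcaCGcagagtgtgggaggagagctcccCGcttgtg
Entpd4 (CpG-rich class, promoter), chr14:69955467-69955617: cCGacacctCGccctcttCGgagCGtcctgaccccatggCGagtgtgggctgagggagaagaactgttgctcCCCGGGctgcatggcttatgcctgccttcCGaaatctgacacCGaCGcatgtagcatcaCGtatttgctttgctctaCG
Myo18a (methylated class, gene body), chr11:77655251-77655401: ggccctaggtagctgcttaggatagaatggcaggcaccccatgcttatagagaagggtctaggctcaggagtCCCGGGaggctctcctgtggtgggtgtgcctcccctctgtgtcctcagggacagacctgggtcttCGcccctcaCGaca
Runx1 (intron, both sites), chr16:92644877-92645041: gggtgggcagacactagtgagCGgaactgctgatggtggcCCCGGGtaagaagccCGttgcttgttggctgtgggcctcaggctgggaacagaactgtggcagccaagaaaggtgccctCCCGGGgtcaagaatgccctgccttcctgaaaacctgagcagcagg

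The shares of sites with short letter patterns of known factors differed between the classes. In 200 bp around the site, on both strands, GAGGAAGT of the blood factor PU.1 was present at 1.79% of the class, against 0.948% of the CpG-rich class, 0.812% of the methylated class and 1.06% of all 15742 sites. GGGGCGGG of SP1, a pattern typical of islands, was present at 9.99%, against 16.1% and 0.989% in the same classes and 10.5% of all sites. TGTGGTT of RUNX factors was present at 2.69%, against 1.12%, 2.86% and 2.07%. AGGGGGC, part of the CTCF pattern, was present at 10.3%, against 10.7%, 3.603% and 8.49%, and CCACACCC of KLF factors at 3.89%, against 1.90%, 2.08% and 2.32%. The printed stretch of Rara holds the PU.1 letters and that of Lima1 the GATA letters AGATAAG. The GATA letters were present at 1.495% of the class, against 0.409% of the CpG-rich class, 2.15% of the methylated class and 1.00% of all sites. These patterns are part of a longer list, with others rarer or more common in the class. GCCATNTT of YY1 was present at 1.38% against 3.12% of all sites, and TGANTCA of AP-1 at 3.35% against 2.71%. Among all 6850 retained CpG-poor sites, the class included, PU.1, SP1, CTCF and KLF letters were less common than in the class (1.21, 3.69, 5.72 and 2.86%). RUNX and GATA letters were more common there (3.30 and 1.75%). These shares are matches of letters in a window and are given as a description.

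Retained sites close to a member of the class were mostly unmethylated too. Another retained site lay within 1000 bp of 1650 of the 1672 sites, at a median distance of 199 bp. The AL-young mean of the nearest one was below 5% for 88.8% of them, between 5 and 90% for 11.03%, and over 90% for 2 sites. In the CpG-rich class 98.3% of the nearest sites were below 5%, and in the methylated class 0.116%.

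Across mice the typical site of the class stayed near 0 at all ages, while AL-old mice differed from one another in the share of sites with clear methylation. The median over the sites was 0.437 to 0.555% in the 5 AL-young mice, which is low by the rule. It was 0.0843% in AL-old 08, 0.172% in AL-old 09, 0.231% in AL-old 10, 0.0853% in AL-old 13, 0.229% in AL-old 14, 0.774% in AL-old 25 and 0.813% in AL-old 27. It was 0.585% in CR-old 02, 0.179% in CR-old 06, 0.506% in CR-old 19, 0.493% in CR-old 20 and 0.446% in CR-old 22. The 6 mice with a high correction had the 6 lowest medians, and the 11 others spanned 0.437 to 0.813%. The adjusted medians were 0.520 to 0.670% in AL-young, 0.420 to 0.970% in AL-old and 0.430 to 0.690% in CR-old mice, and these ranges overlapped.

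The mean over the sites spread more than the median, since a minority of sites was highly methylated in some AL-old mice. It was 1.08 ± 0.10% (SD, n = 5) for AL-young, 2.23 ± 1.71% (n = 7) for AL-old and 1.21 ± 0.31% (n = 5) for CR-old. Within AL-old it reached from 0.719% in AL-old 08 over a median of 1.64% to 5.91% in AL-old 27, and without AL-old 27 the group mean was 1.62%. The adjusted means were 1.23 ± 0.07% for AL-young, 3.39 ± 1.63% for AL-old and 1.44 ± 0.07% for CR-old. On that scale AL-old 08 was at 2.50%, and every AL-old mouse (1.58 to 5.64%) was above every CR-old mouse (1.32 to 1.51%), whereas the raw ranges overlapped. The share of sites at 10% methylation or more was 0 in every AL-young mouse. In AL-old mice it was 0.719% in AL-old 08, 3.35% in AL-old 09, 3.53% in AL-old 10, 5.69% in AL-old 13, 6.05% in AL-old 14, 1.23% in AL-old 25 and 15.8% in AL-old 27. In CR-old mice it was 0.901% in CR-old 02, 0.120% in CR-old 06, 0.538% in CR-old 19, 0.778% in CR-old 20 and 1.02% in CR-old 22. The AL-old and CR-old ranges overlapped only through AL-old 08, which lay below 3 CR-old mice, and the other 6 AL-old mice were above all CR-old mice. Whole blood is a mixture, so methylation within a cell type and the shares of cell types cannot be told apart in these values.

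**Figure D2:**
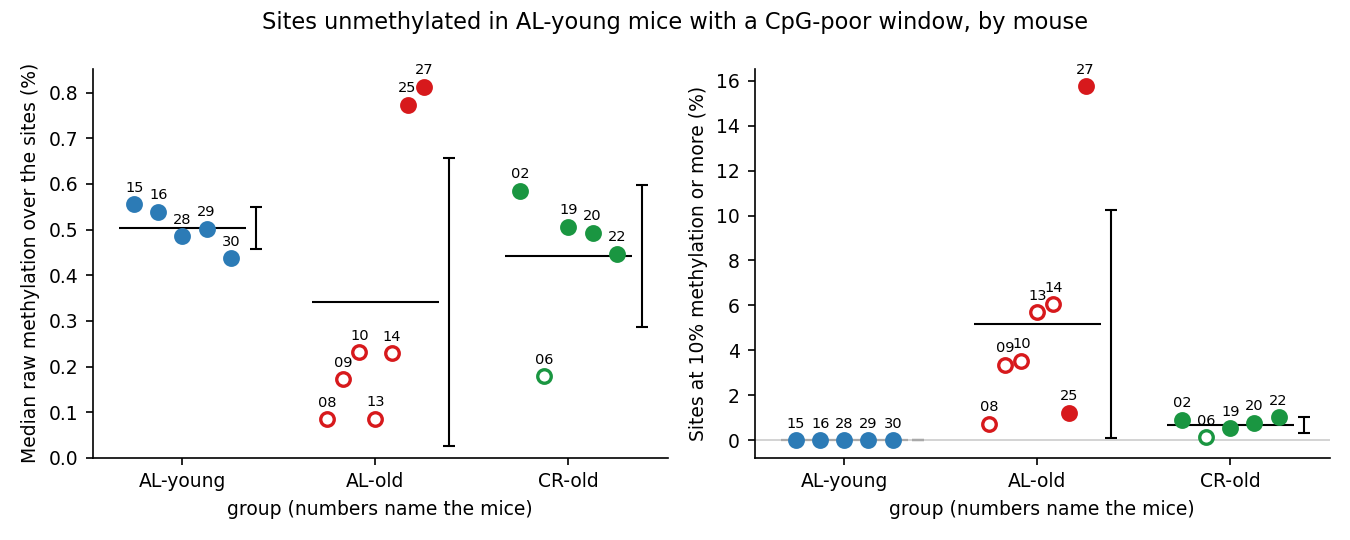
Median raw methylation over the 1672 sites in percent (left) and percent of the sites at 10% methylation or more (right) for each of the 17 mice, with the mouse number at each point, open circles for the 6 mice with a high correction, the horizontal line at the group mean and the bar showing 1 SD. The open circles are lowest on the left, and on the right AL-old 27 stands at 15.8% while CR-old mice stay between 0.120 and 1.02%.

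With age the class split into a large stable part and a small part that was much higher in AL-old mice. The median difference of AL-old minus AL-young means was 0.00 points over the 1672 sites and -0.02 points over all 15742 sites. The mean AL-old level was at least 2 points above the AL-young mean at 262 sites (15.7%) and at least 2 points below it at 48 (2.87%). It was at least 10 points above at 57 sites (3.41%), a share close to the 3.44% of all retained sites and the 3.26% of the CpG-rich class. Every AL-old mouse was above every AL-young mouse at 39 sites (2.33%, against 2.38% of all sites), and every AL-old mouse was below at 29 (1.73%, against 2.12%). At 626 sites (37.4%) every mouse with a value stayed under 1%, and at 312 at least 1 AL-old mouse reached 10%.

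The 57 sites at least 10 points higher were not higher in the same animals to the same degree. Their median level was 2.27% in AL-young, 18.0% in AL-old and 3.69% in CR-old mice, and the median SD among mice was 18.9 points in AL-old and 1.58 points in CR-old. AL-old 27 was at 10% or more at all 51 of these sites with a value and was the highest AL-old mouse at 32, whereas AL-old 25, of the same age and sex, was at 10% or more at 2 of 55 and AL-old 08 at 10 of 52. At 12 of the sites 1 or 2 AL-old mice reached 10%, at 32 sites 3 or 4 mice and at 13 sites 5 or 6 mice. No site was at 10% or more in all 7. Without AL-old 27 the AL-old mean was still at least 10 points above AL-young at 35 of the 57. The sites were picked for a high AL-old mean, so their lower CR-old levels are a description.

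The comparison of CR-old with AL-old mice asks whether blood of old animals on fewer calories differs at these sites. The CR-old mice were 32 to 38 months old and the AL-old mice 29 to 33, so diet and age within the old groups cannot be told apart. By edgeR's quasi-likelihood test on the read counts of all retained sites, with a Benjamini-Hochberg adjusted p-value under 0.05 and group means at least 2 points apart, 29 sites of the class were lower in CR-old (1.73%, against 1.77% of all sites tested) and 8 were higher (0.478%, against 1.65%). An unadjusted p-value under 0.05 in that test was reached by 105 sites lower in CR-old (6.28%, against 8.47% of all sites). It was reached by 119 sites higher in CR-old (7.12%, against 7.39%). The median difference of CR-old minus AL-old means was -0.01 points over the class and 0.00 over all sites, and the mean difference was -0.97 points. CR-old mice lay wholly below AL-old mice at 6 sites (0.359%, against 1.04% of all sites) and wholly above at 7 (0.419%, against 0.286%). With the high or low correction as a term in the fit 7 sites were lower and 0 higher (0.381 and 0.0381% of all sites), with only the 11 low-correction mice 9 and 1 (1.01 and 0.108% of all sites), and without 1 mouse at a time 8 to 44 and 1 to 32, so the counts depended on which libraries entered.

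**Figure D3:**
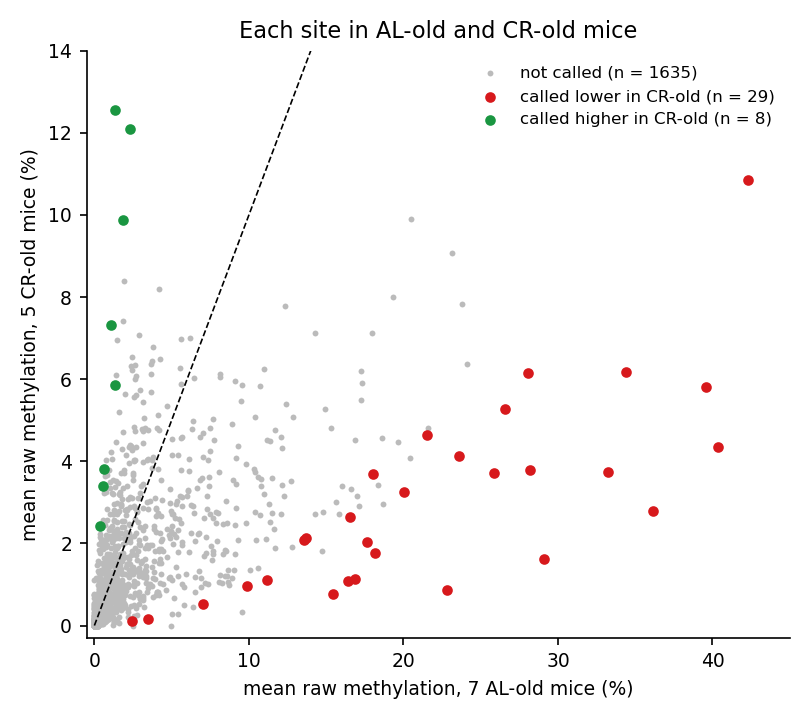
Mean raw methylation in percent of each of the 1672 sites in AL-old mice (x axis, up to 7 mice a site) and CR-old mice (y axis, up to 5, on a shorter scale), with the 29 sites called lower in CR-old in red, the 8 called higher in green and the line of equal means dashed. Sites called lower lie between 2.43 and 42.3% in AL-old and no higher than 10.9% in CR-old.

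The 29 sites lower in CR-old differed by a median of -16.8 points, a size that the call itself favours. The CR-old mean was within 2 points of the AL-young mean at 24 of them. Over the whole class it was 2 points or more above AL-young at 55 sites (3.29%, against 3.84% of all sites and 1.44% of the CpG-rich class). The old groups overlapped at 25 of the 29, mainly through AL-old 25, which was under 5% at 20 and had a median of 2.85% over the 27 sites with a value, like the CR-old mice at 1.25 to 3.67%. The other AL-old mice had medians of 5.97% (AL-old 08), 11.96% (AL-old 09), 16.3% (AL-old 10), 33.6% (AL-old 13), 29.6% (AL-old 14) and 42.7% (AL-old 27). Of these sites 12 lay in gene bodies, 10 in promoters and 7 between genes, 15 were intronic, 12 were inside an island, and they belonged to or were nearest to 25 genes.

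The intron of Myl7, which encodes the atrial myosin light chain, held the called site with the largest difference (chr11:5797977-5797982, 805 bp from the start). The AL-young mice were at 4.04, 3.67, 3.74, 4.204 and 3.65%, and the CR-old mice at 6.37, 5.56, 4.64, 3.75 and 1.38%. The AL-old mice ranged from 3.37% over a median of 33.4% to 77.7%. All AL-old mice but AL-old 25 (3.37%) were above every CR-old mouse. The means were 40.3 ± 29.3% (SD, n = 7) for AL-old and 4.34 ± 1.92% (n = 5) for CR-old, with a log2 odds ratio of -3.76 ± 0.81 (SE) and an adjusted p of 0.00347 by edgeR's quasi-likelihood test with Benjamini-Hochberg adjustment, and p = 0.0253 in the exact two-sided permutation test over the 792 splits of the 12 old mice. In the low-correction mice alone the means were 33.3% in AL-old and 4.03% in CR-old. That AL-old mean came only from AL-old 25 at 3.37% and AL-old 27 at 63.2%. The site was not called in the low-correction mice (edgeR adjusted p = 0.163) or with the correction as a term (0.0575).

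Odz4, a teneurin cell-surface protein of the nervous system, carried a site 13226 bp into the gene (chr7:103805905-103805910, intron). The AL-young mice were at 2.56, 3.36, 2.86, 4.21 and 2.49% and the CR-old mice at 5.81, 9.85, 5.58, 4.62 and 3.21%, while the AL-old mice ranged from 3.73% (AL-old 25) over 35.2% to 69.7% (AL-old 13). Again 6 of 7 AL-old mice exceeded every CR-old mouse. The means of 39.6 ± 25.0% and 5.81 ± 2.48% gave a log2 odds ratio of -3.31 ± 0.74 with an adjusted p of 0.00541 by edgeR's quasi-likelihood test, and 0.0826 with the correction as a term. A second site of the class 130 bp away in Odz4 showed 4.102% in AL-young, 28.1% in AL-old and 6.16% in CR-old mice and was called lower too (adjusted p = 0.0335 by edgeR).

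Lima1, an actin-binding protein of the cytoskeleton, held a site in a stretch with only 5 CpGs in 500 bp and a second CCCGGG close by in the printed sequence (chr15:99634065-99634070, intron). The AL-young mice were at 1.34, 1.84, 0.439, 1.15 and 0.519% and the CR-old mice at 4.01, 4.58, 3.36, 1.40 and 0.604%, against 1.66% (AL-old 25) over 38.8% to 84.1% (AL-old 14) in AL-old mice. The means were 36.1 ± 29.2% and 2.79 ± 1.71%, the log2 odds ratio was -4.15 ± 0.87 and the adjusted p was 0.00267 by edgeR's quasi-likelihood test, and 0.0632 with the correction as a term. No single mouse left out ended the call at the Myl7, Odz4 or Lima1 sites listed with their values by mouse.

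Runx1, the transcription factor that founds the blood stem cell lineage, had the highest AL-old level of the class at a site 50975 bp from the nearest start (chr16:92644917-92644922, intron). The AL-young mice were at 5.27, 4.30, 3.96, 3.65 and 3.79%. The CR-old mice were at 14.2, 17.2, 11.1, 7.67 and 4.15%, and the AL-old mice from 7.41% (AL-old 25) over 44.6% to 85.1% (AL-old 14). Every AL-old mouse was above every AL-young mouse here, and 6 of 7 were above every CR-old mouse. The means of 42.3 ± 23.9% and 10.9 ± 5.16% gave a log2 odds ratio of -2.61 ± 0.71 with an adjusted p of 0.0249 by edgeR's quasi-likelihood test. This adjusted p lay between 0.0522 and 0.111 without AL-old 09, AL-old 14, CR-old 19, CR-old 20 or CR-old 22, and was 0.206 with the correction as a term.

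Of the other sites with large differences, both sites upstream of Tubb2b, a beta-tubulin of neurons, had almost equal levels 212 bp apart. The site at chr13:34224484-34224489 was at 1.23% in AL-young, 25.9 ± 18.4% in AL-old and 3.72 ± 1.62% in CR-old mice, and that at chr13:34224272-34224277 at 3.38, 26.6 ± 17.9 and 5.27 ± 1.97%. The lowest AL-old values were again those of AL-old 25 and AL-old 09 (2.27 and 6.45% at the first, 7.44 and 6.14% at the second). Rgs3, a regulator of G-protein signalling, was at 4.43% in AL-young, 21.5 ± 15.5% in AL-old and 4.64 ± 1.46% in CR-old mice (chr4:62346682-62346687, intron). The intergenic site nearest to Gm9953 was at 3.55, 28.2 ± 26.5 and 3.79 ± 1.87%, and the intronic site of Gm9934 at 3.41, 23.6 ± 20.6 and 4.13 ± 1.70%. A site of Erf, a repressor of the ETS family, was at 23.8 ± 20.9% in AL-old and 7.82 ± 5.404% in CR-old mice but was not called (adjusted p = 0.179 by edgeR's quasi-likelihood test). A second intronic site of Erf, 108 bp away, was called lower in CR-old (adjusted p = 0.0285 by the same test). It was at 20.0 ± 13.2% in AL-old and 3.26 ± 1.41% in CR-old mice. Adjusted p-values of the called sites named with Tubb2b ran from 0.0154 (Tubb2b) to 0.0499 (Gm9934). The call was lost at the first Tubb2b site without CR-old 22 (0.0728), at the second and at the Gm9953 site without AL-old 13, AL-old 14, CR-old 19, CR-old 20 or CR-old 22 (up to 0.0863 and 0.116), at Rgs3 without any of these or AL-old 27 or CR-old 02 (up to 0.154), and at Gm9934 without any of the latter or AL-old 09 (up to 0.158).

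Promoter sites among the 29 included Bcl9l, a coactivator of Wnt signalling, at 0.412, 29.1 ± 29.4 and 1.63 ± 0.87%, with 6 AL-old mice at 100 reads. The promoter of Slc16a1, a lactate transporter, was called at a smaller size, at 0.291, 3.45 ± 3.50 and 0.165 ± 0.24%. Nrxn3, a synaptic adhesion protein, was at 1.49, 16.4 ± 24.3 and 1.08 ± 1.04%, and the promoter of Arhgef5, a guanine nucleotide exchange factor, at 0.710, 13.6 ± 10.1 and 2.09 ± 0.89% at the site 396 bp from the start. Bcl9l, Slc16a1, Ptprg, Zfpm2, Tmem229a and the site near Rpl21-ps10 were the 6 of the 29 that were also called with the correction as a term in the fit. Slc16a1 and Ptprg were the 2 that were also called in low-correction mice alone. These examples were chosen after their values were seen.

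The 8 sites higher in CR-old were lower in AL-old than in AL-young mice at all but the site near Gm11998, and their differences were smaller, with a median of 5.41 points. The largest was at an intergenic site -6807 bp from the start of Zfp395, a zinc finger protein (chr14:65970703-65970708). The AL-young mice were at 3.63, 2.99, 4.01, 3.59 and 2.44%, the CR-old mice at 9.27, 0.819, 10.6, 24.0 and 18.1%, and the AL-old mice ranged from 0 over 0.531% to 5.51%. The groups overlapped through CR-old 06 (0.819%) and AL-old 25 (5.51%). The means of 1.31 ± 1.94% and 12.6 ± 8.86% gave a log2 odds ratio of 3.88 ± 0.86 with an adjusted p of 0.00491 by edgeR's quasi-likelihood test, and p = 0.00505 in the exact permutation test. With the correction as a term the adjusted p was 0.143, and in low-correction mice alone 0.0530.

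CR-old 06 was the lowest CR-old mouse at all 8 sites, and AL-old 25 was the highest AL-old mouse at all but the site near Gm11998, where AL-old 08 was. Over the 8 sites the median was 0.720% in CR-old 06, the CR-old mouse with a high correction, against 6.17 to 9.10% in the other 4 CR-old mice, and 3.53% in AL-old 25 against 0.0595 to 1.14% in the other 6 AL-old mice. The site near Gm11998 (chr11:11429148-11429153) was at 10.3, 1.87, 14.7, 18.7 and 14.9% in CR-old mice, 0.719 to 4.202% in AL-old and 0.324 to 1.81% in AL-young mice (edgeR adjusted p = 0.0309). It was the only 1 of the 8 that was also called in low-correction mice alone, where the means were 2.38% in AL-old 25 and 27 and 14.7% in CR-old (edgeR adjusted p = 0.0479). Its call was lost without AL-old 13, AL-old 14, CR-old 02, CR-old 19, CR-old 20 or CR-old 22 (up to 0.145) and with the correction as an offset (0.0705). The promoter of Papln, an extracellular matrix protein (228 bp from the start), was at 2.08, 1.05 ± 1.33 and 7.31 ± 6.41%, with 17.1% in CR-old 02. Chst3, a chondroitin sulfotransferase, was at 1.47, 0.530 ± 1.11 and 3.39 ± 3.09%. The Papln call was lost without AL-old 08, AL-old 13, AL-old 14 or any CR-old mouse but CR-old 06 (up to 0.129), and that of Chst3 without AL-old 13, AL-old 14, CR-old 19, CR-old 20 or CR-old 22 (up to 0.133). With the correction as a term in the fit 0 of the 8 were called, and the groups overlapped at all 8.

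**Figure D4:**
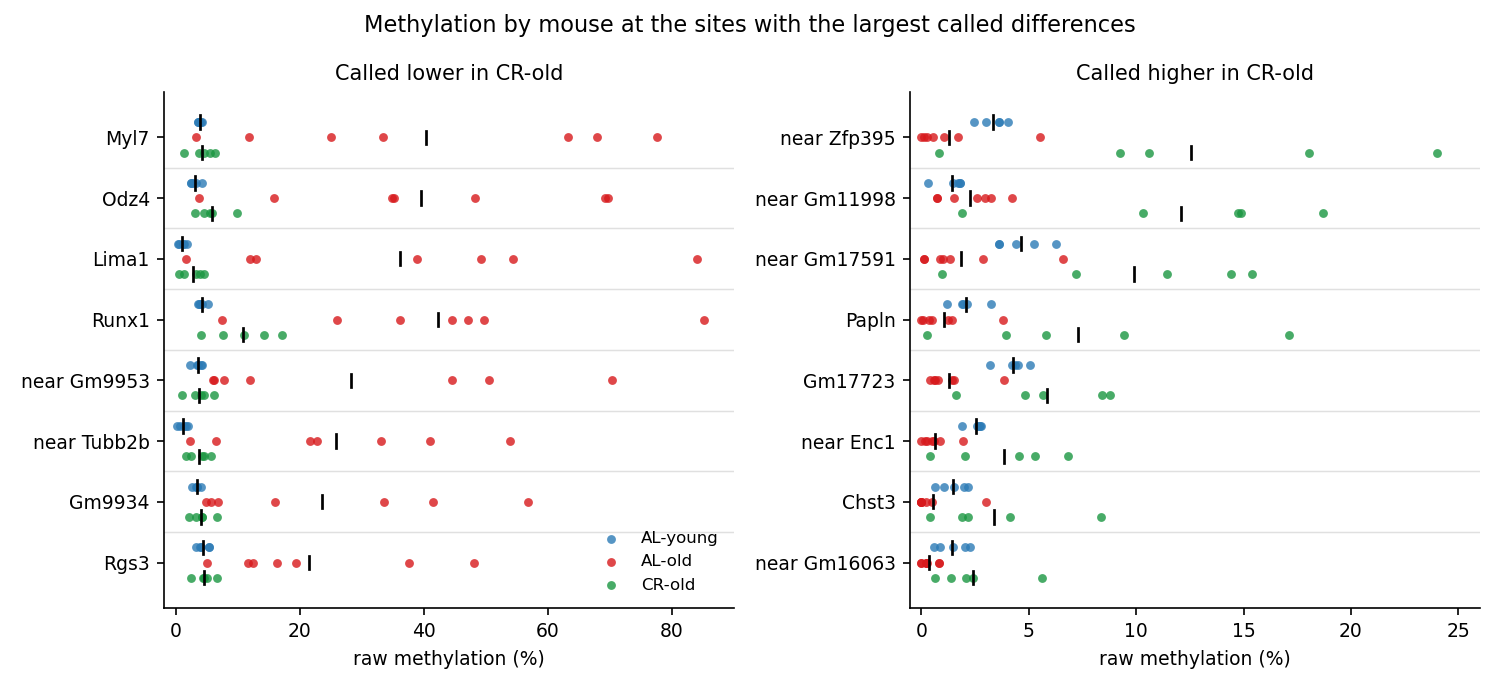
Raw methylation in percent by mouse at the 8 sites lower in CR-old (left) and the 8 higher in CR-old (right) with the largest called differences and 100 reads in all 17 mice, in AL-young (blue), AL-old (red) and CR-old mice (green), with group means as short black lines. On the left AL-old mice spread from 1.66 to 85.1% over values of CR-old mice that stay under 18%, and on the right at least 1 CR-old mouse lies among the AL-old mice at each site.

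The most deeply covered sites among those under 1% in all 17 mice show how flat the stable part was. Ap2m1, the medium chain of the AP-2 clathrin adaptor, was at 0 in all 5 CR-old mice, at 0 to 0.153% in AL-old and at 0 to 0.0595% in AL-young mice with 1299 to 11386 reads per mouse (chr16:20535974-20535979, promoter). Gsg2, the histone kinase haspin, was at 0 to 0.0625% in AL-old and 0 to 0.0416% in CR-old mice. Sphk1, which makes sphingosine-1-phosphate, had means of 0.267 ± 0.11% in AL-young, 0.164 ± 0.17% in AL-old and 0.171 ± 0.13% in CR-old mice at its start. Among the sequences above, the stretch of Ap2m1 carried 8 CpGs and those of Myl7 and Lima1 4 and 2. By comparison the CpG-rich site of Entpd4 was at 0.156, 0.0777 and 0.0879% and the methylated site of Myo18a at 96.5, 95.2 and 96.7%.

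Sites of the class that lay side by side could differ widely in AL-old mice. Joining sites within 500 bp gave 1208 regions, of which 798 held 1 site and the largest 5. The 464 neighbouring pairs differed by a median of 0.377 points in the AL-old mean. At least 1 site of 25 pairs was 10 points or more above AL-young, both sites were so in 8, and 15 pairs were over 10 points apart. In Runx1 the 2 printed sites are 79 bp apart, and the second (chr16:92644996-92645001) stayed between 0 and 2.14% in all 7 AL-old mice while the first ranged from 7.41 to 85.1%, with means of 1.303 ± 0.83% and 42.3 ± 23.9%. The second site had an edgeR adjusted p of 0.891. Its means in AL-young and CR-old mice were 1.16 and 1.67%.

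Another 3 pairs with 100 reads in every mouse are given as examples of wide gaps. In Rgs3 a site 230 bp away from the called one was at 1.04 ± 0.99% in AL-old mice, against 21.5 ± 15.5%. In the promoter of Robo2, a receptor of axon guidance, sites 85 bp apart were at 2.94 ± 6.10% and 20.4 ± 24.7%, and AL-old 27 was highest at both, with 16.8 and 73.4%. In Sgcz, a sarcoglycan of muscle, sites 122 bp apart were at 1.77 ± 1.29% and 17.1 ± 18.0%. These 4 pairs were chosen after their values were seen. By contrast both sites of Myl7, 206 bp apart, were high in AL-old mice (33.2 and 40.3%), as were those of Odz4 and Tubb2b.

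**Figure D5:**
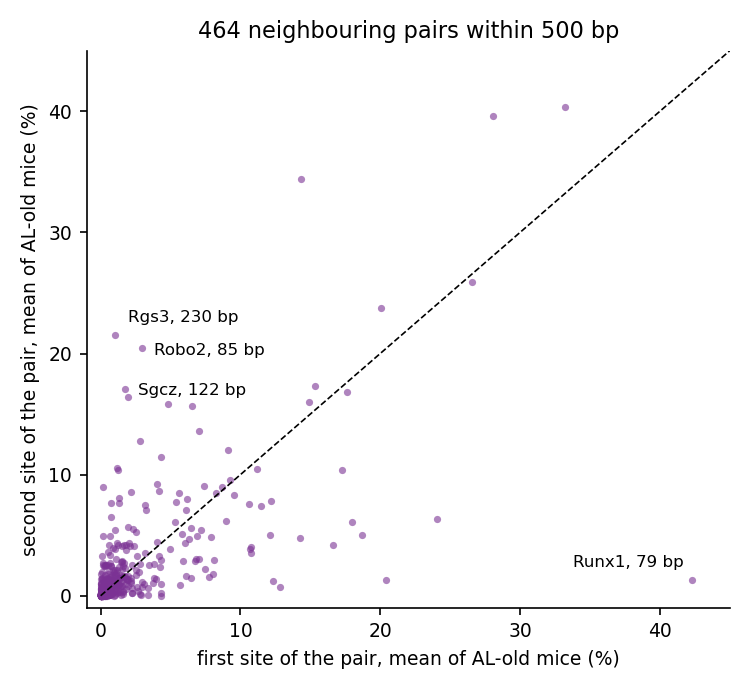
Mean raw methylation of AL-old mice in percent at the first and second site of each of the 464 pairs of neighbouring sites within 500 bp, ordered along the chromosome, with the line of equal values dashed. Most points crowd near 0, and the labelled pairs of Runx1, Rgs3, Robo2 and Sgcz lie far from the line at distances of 79, 230, 85 and 122 bp.

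Within the class, position relative to islands went with the size of the differences. The mean AL-old level was 1.92% inside islands, 2.56% within 2000 bp and 4.38% farther away, against 0.885, 1.32 and 2.03% in AL-young and 0.966, 1.44 and 2.94% in CR-old mice. AL-old was 10 points or more above AL-young at 2.51, 4.07 and 11.4% of these sites, and 1.16, 2.30 and 5.71% were called lower in CR-old. Gene-body sites outside promoters had a mean of 2.93% in AL-old mice, intergenic sites 2.80% and promoters 1.62%. Sites with a ratio under 0.3 had 4.27% in AL-old mice, against 1.87% at a ratio of 0.45 to 0.6. The AL-young level itself ran along these strata, and sites at 2 to 5% in AL-young were 10 points or more higher in AL-old at 9.17% against 0.564% of sites under 1%, so position and starting level cannot be told apart here.

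The 70 sites more than 2000 bp from any island included 34 intergenic, 25 gene-body and 11 promoter positions. A pair of them lay at -34104 and -33942 bp from the start of Ifng, the interferon of T and NK cells, with means of 0.284, 0.374 and 0.334% at the first and 1.53, 0.873 and 0.581% at the second. The intron of Zmiz1, a transcriptional coregulator, was at 0.832, 0.277 and 0.577%, and the promoter of Hvcn1, a proton channel of leukocytes, at 0.582, 0.288 and 0.474%. These stayed near 0 in all groups. Others were higher in AL-old mice, among them the intron of Nfatc2, a factor of T-cell activation, at 1.31, 10.99 ± 5.75 and 6.25%. An intergenic site whose nearest start, 67990 bp away, was that of Cd2, a T-cell adhesion molecule, was at 2.79, 11.3 ± 6.45 and 4.49%. Runx2, the factor of bone formation, had 2 such intronic sites, at 2.00, 14.9 ± 12.3 and 5.28% and at 2.27, 16.0 ± 12.3 and 3.39%. Chst11, a chondroitin sulfotransferase, was at 0.950, 11.2 ± 10.1 and 1.10% and was called lower in CR-old (adjusted p = 0.00932 by edgeR's quasi-likelihood test). In all, 8 of the 70 (11.4%) were 10 points or more higher in AL-old, against 3.44% of all sites. In CR-old 4 (5.71%) were called lower and 4 (5.71%) higher, against 1.77 and 1.65% of all sites. Of those called lower, the sites near Rpl21-ps10 and Gm13869 had values in only 3 and 5 AL-old mice. These distal examples were chosen after their values were seen.

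Sites of the class were counted by gene list, beside 1.77% of all sites called lower and 1.65% called higher, shares at which lists of this size hold few calls or none. Transcription factors of blood lineages had 25 sites of the class among 151 retained sites, in 17 genes, with median levels of 0.349, 0.202 and 0.284%. Only the Runx1 site was called, lower in CR-old, and 3 sites were 10 points or more higher in AL-old (Runx1 and both Runx2 sites). Ebf1, the B-cell factor, was at 1.96, 3.48 ± 5.31 and 4.06 ± 2.00%, and the promoter of Rara, a retinoic acid receptor, at 0.0232, 0.0339 and 0%. Runx3, a factor of cytotoxic T cells, had 3 promoter sites with AL-old means of 0, 0.104 and 0.138%.

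Immune receptors and signalling genes had 14 sites, none called and none above 0.870% in AL-old or 1.63% in CR-old. Myd88, an adaptor of Toll-like receptors, was at 0.127, 0.0422 and 0.146% at one promoter site and at 1.18, 0.227 and 1.57% at another, where the edgeR adjusted p was 0.0285 with means less than 2 points apart, and Jak3, the kinase of common gamma-chain receptors, at 0.0933, 0.0975 and 0.101%. Granulocyte and monocyte genes had 2 sites, both at Nfam1, with 3.82, 1.18 and 3.55% at the first and 4.097, 0.822 and 2.83% at the second, neither called. Red cell and platelet genes had 2, Spnb1 (red cell spectrin) at 1.64, 3.33 ± 5.83 and 1.21%, with 16.2% in the highest AL-old mouse, and Vwf (von Willebrand factor) at 1.32, 0.198 and 0.618%. Neither was called, and cell composition was not measured otherwise.

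Chromatin and DNA methylation regulators had 18 sites of the class in 8 genes, with median levels of 0.0646, 0.0720 and 0.0685%. Smarca2, a remodelling ATPase, was at 0.0188 and 0.00599% in AL-old mice at its 2 sites. Tet1, a methylcytosine oxidase, was at 0.142 and 0.245% in AL-young and 2.16 ± 4.63 and 1.24 ± 2.76% in AL-old mice, and the promoter of Ctcf at 0.0129, 0.0132 and 0%. Developmental regulators were the largest list, with 59 sites in 41 genes and none called. Their highest AL-old mean was 12.3 ± 2.64% at Sox2ot, where AL-young was at 4.66% and 5 AL-old mice had a value. Lhx4 was at 0.539, 0.966 and 0.818% and Foxn4 at 3.18, 1.04 and 3.36%. Ion channels and neurotransmitter receptors had 28 sites and none called, with AL-old means up to 12.1%. At Kcnd3, a potassium channel, neighbouring sites were at 1.17, 1.298 and 0.678% and at 3.57, 7.68 ± 13.3 and 1.82%. Ribosome and translation genes had 11 sites, none called, with Eif2c2 (Argonaute 2) at 0.0175, 0.0440 and 0.0187% and at 0.391, 0.570 and 0.247%.

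The limits of the rule cut through a continuum. Just inside the AL-young limit were Napb (4.98%), Zfp503 (4.98%) and Kcng1 (4.997%), with AL-old means of 5.70, 2.54 and 2.54% and CR-old means of 2.04, 4.83 and 4.04%. Just outside were A330033J07Rik (5.007%), A730056A06Rik (5.01%) and Olfm1 (5.01%), with AL-old means of 17.8, 2.45 and 2.02% and CR-old means of 3.82, 5.18 and 2.99%. Arhgef5 just inside and Dlx4 just outside the ratio limit lay next to each other in ratio, with AL-old means of 3.22 and 0.809%. Stt3a had a GC content of 49.8% and Lrig3, outside, 50.0%, with AL-old means of 0.0162 and 2.32%.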

How the data were processed

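The deposited files gave, for each CCCGGG site and mouse, counts of methylated and total reads, which the authors made by mapping DREAM reads to mm9 and assigning each to a site by its end. The deposited files also held methylation in percent, which the authors computed from these counts, raw and after adjustment by spiked standards. The submitters' processing notes name Bowtie2 and SAMtools, with versions not given in the sources used here. Of 173449 genomic sites, 164896 autosomal ones were used. Raw methylation was recomputed as 100 times methylated over total reads, and values under 100 reads were dropped. Windows, islands and distances came from mm9 (NCBIM37) with GENCODE M1 genes.

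CR-old was compared with AL-old by edgeR 4.0.16 (R 4.3.3), a quasi-likelihood test on methylated and unmethylated counts of all 17 mice with a common dispersion, with Benjamini-Hochberg adjustment over 15742 sites. Single sites were also tested by an exact two-sided permutation test over the 792 splits of the old mice. The fit was checked on simulated data, where it missed many changed sites, most of them at the wider simulated spread, so a site that was not called may still differ. Other tools were limma 3.58.1, scipy 1.17.1, pandas 2.3.3 and numpy 2.4.6 under Python 3.11.15, and matplotlib 3.10.9. At 100 reads 1 read is 1%, and intervals cover counting error only. Each library is another mouse. The study's libraries, those of other species included, were run on several Illumina instruments, and which was used for each mouse is not given in the sources used here.

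Named were up to 8 called sites in each direction by difference, the 8 with the highest AL-old mean, 5 deeply read sites under 1% throughout, 2 of each gene list by depth, and sites nearest the limits of the rule. The first 3 kinds had 100 reads in all 17 mice and 1 site per gene. The class, the gene lists and these choices were made with earlier results of these data known. Alternatives covered the correction, the mice included, the dispersion, sex, limma, the read minimum and the limits of the rule. A few sites are not reported here.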

Additional observations from a re-analysis of the deposited data

Results flagged for a closer look

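In groups of 5 or 7 mice, 1 mouse stood far from the rest at 11 of 62 groups examined. The groups include those of 18 sites picked from these data, and they share the same mice. A chance rate therefore cannot be set beside this count. The mean over the class was 5.91% in AL-old 27, with the next AL-old mouse at 2.50%, and 0.678% in CR-old 06, with the next CR-old mouse at 1.28%. The share of sites at 10% or more was 15.8% in AL-old 27 and 6.05% in the next mouse. AL-old 27 was also far above the others at the Erf site that was not called, with 67.6% against 27.1%. AL-old 25 stood above the other AL-old mice at 5 sites higher in CR-old, with 5.51% near Zfp395, 6.603% near Gm17591, 3.81% at Papln, 3.84% at Gm17723 and 3.01% at Chst3. Among AL-young mice, AL-young 16 was low near Gm11998 with 0.324%, and AL-young 15 was low near Enc1 with 1.875%.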

How the results depend on the processing

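The counts of 29 sites lower and 8 higher in CR-old moved with the processing, and the causes were not tested. With the authors' correction as an offset they were 87 and 7, where 6.96 and 1.23% of all sites were called. With high or low correction as a term they were 7 and 0 (0.381 and 0.0381% of all sites). In low-correction mice alone they were 9 and 1 (1.01 and 0.108%). With only the old groups in the fit they were 14 and 3 (0.743 and 0.883% of all sites). Limma gave 15 and 7 (1.14 and 0.953%), and sex as a term 23 and 1 (1.43 and 0.947%). From 500 reads they were 17 and 5, with both sequence limits required 3 and 2, and with AL-young below 2% 17 and 3. The shares of all sites beside these and the following call counts are not given here. Trended dispersion, 20 reads, no minimum difference and windows of 300 or 1000 bp gave 29 to 34 and 8 to 12. Leaving out 1 mouse gave 8 to 44 lower and 1 to 32 higher. The lower count changed by over 1.5 times without AL-old 09 (16), AL-old 13 (15), AL-old 14 (16), AL-old 25 (44), CR-old 02 (19), CR-old 19 (12), CR-old 20 (10) or CR-old 22 (8). The higher count did so without AL-old 09 (5), AL-old 13 (4), AL-old 14 (3), AL-old 25 (32), AL-old 27 (15), CR-old 02 (3), CR-old 06 (23), CR-old 19 (1), CR-old 20 (1) or CR-old 22 (1). Of the 18 sites with full statistics none turned direction. All 17 of them that had been called were no longer called with the correction as a term. The remaining site, that of Erf, had not been called before either. The median difference of CR-old minus AL-old was -0.97 as a mean and -0.0187 to 0.0191 without 1 mouse, and that of AL-old minus AL-young 1.10 as a mean and -0.0372 to 0 without 1 mouse. AL-old lay wholly above AL-young at 39 sites, at 88 with adjusted values, at 334 with low-correction mice, of which AL-old had 2, and at 38 to 59 without 1 mouse (59 without AL-old 25). The share of all sites beside the 39 was 2.38%, and the shares beside the other counts are not given here. No paired analysis was possible because the groups share no mouse numbers. Depth limits levels under about 1% at 100 reads.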
